A study of Rattus norvegicus with 18 samples.

Results

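The genes described are 9 members of the bone morphogenetic protein (BMP) pathway in rat heart cells: the ligands Bmp2 and Bmp4, the receptor Bmpr2, the antagonists Grem1 and Fst, the inhibitor Smad6, and the target genes Id1, Id2 and Id3. They were taken by symbol from 17455 genes listed in each expression table and by name from the lists of m6A peaks, and all 9 had a p-value in both tables. The list was put together with the RNA and m6A changes in view, so the genes were in part chosen by the values given here. Their changes are a description, and no statement about the pathway rests on their number.

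The cells were H9c2, a wild-type myoblast line from rat myocardium, treated with bufalin, treated with periplocin, or grown as controls. Each of the 3 conditions had 3 libraries of antibody-enriched RNA (IP) and 3 of RNA before enrichment (input), 18 in all. Bufalin comes from toad venom and periplocin from a plant, and as cardiotonic steroids they inhibit the sodium-potassium ATPase. Periplocin is a glycoside of the cardenolide type, whereas bufalin belongs to the bufadienolides and has no sugar attached. Dose and duration are not in the labels, and neither is whether replicates were separate cultures, so p-values measure the spread between these samples. H9c2 is 1 cell line and does not beat, which limits it as a model of heart muscle.

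BMPs are secreted signals that bind pairs of type I and type II receptor kinases. The receptors phosphorylate Smad1, Smad5 and Smad9, which enter the nucleus with Smad4 and switch on target genes, the Id genes among them. Id proteins hold basic helix-loop-helix partners away from DNA and so delay muscle differentiation. Smad6 and Smad7 feed back on the receptors, while noggin, gremlin and follistatin hold ligands outside the cell. In the heart the pathway is known for its part in the formation of heart muscle and valves.

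The deposited tables compare conditions and hold no values of single libraries. Each level below is thus a fitted group mean of normalized counts, worked out from the mean and the fold change of a table, and its spread is the authors' standard error (SE). These counts are not divided by transcript length, so levels are not compared between genes. The sources do not say whether input or IP libraries stand behind them, and they are read here as RNA levels. In these bulk samples, fewer cells making an RNA and less of it per cell cannot be told apart. Myoblast markers were present in control cells, with 8 of 10 at a mean of at least 10. Of cardiomyocyte markers 1 of 4 reached it, Myh6 at 313, with Ryr2 at 0.178. Of endothelial markers 2 of 5 and of leukocyte markers 2 of 4 did, all 4 smooth muscle and 3 of 5 fibroblast markers did, and no control mean could be worked out for the 3 epithelial markers Epcam, Cdh1 and Krt18. The part of other cell types in the results was not tested.

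With periplocin, Bmp4 was the 1 gene of the 9 to pass the authors' adjusted p of 0.05, and it rose. With bufalin none of the 9 passed, though 6 of them have no adjusted p in that table, and Bmp4 stayed within 1% of control. Of all genes with an adjusted p, 0.538% passed with periplocin and 0.301% with bufalin. The 9 were chosen with these values known, so the counts are a description. Id2 and Smad6 had the largest folds after the sparse Bmp2, at 1.48 with bufalin and 1.32 with periplocin for Id2 and at 1.30 and 1.28 for Smad6, and neither passed. The 1 interval wholly below control was that of Fst with bufalin, at 0.842-fold.

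The promoters of Bmp4 and of the 3 Id genes are shown because Bmp4 was the called gene and the Id genes are the readout of the pathway that was measured in all groups. RefSeq (GRCr8) gave a promoter for 6 of the 9 genes, and each line holds the 250 bases before 1 annotated start, 5′ to 3′ on the coding strand. For Bmp4 this start lies inside the annotated gene, downstream of its outermost start. GRCr8 differs from the rn6 build of the deposited peaks. Capitals mark CANNTG, the E-box bound by helix-loop-helix factors, and TATAAA, the core of a TATA box.
Bmp4 (chr15:22101934-22102183, minus strand): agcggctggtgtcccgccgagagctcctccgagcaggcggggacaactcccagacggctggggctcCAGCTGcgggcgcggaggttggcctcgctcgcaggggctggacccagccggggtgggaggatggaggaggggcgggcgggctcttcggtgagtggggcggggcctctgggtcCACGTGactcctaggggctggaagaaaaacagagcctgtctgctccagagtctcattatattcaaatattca
Id1 (chr3:161671314-161671563, plus strand): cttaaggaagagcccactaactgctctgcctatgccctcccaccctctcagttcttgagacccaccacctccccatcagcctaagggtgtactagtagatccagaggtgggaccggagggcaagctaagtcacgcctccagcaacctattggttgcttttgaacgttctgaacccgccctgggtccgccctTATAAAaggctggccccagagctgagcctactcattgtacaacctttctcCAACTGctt
Id2 (chr6:47470996-47471245, minus strand): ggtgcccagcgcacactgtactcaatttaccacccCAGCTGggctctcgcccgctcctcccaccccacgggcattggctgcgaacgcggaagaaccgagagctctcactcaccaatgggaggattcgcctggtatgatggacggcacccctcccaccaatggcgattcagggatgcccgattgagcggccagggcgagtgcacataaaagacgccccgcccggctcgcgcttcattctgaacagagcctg
Id3 (chr5:153656041-153656290, plus strand): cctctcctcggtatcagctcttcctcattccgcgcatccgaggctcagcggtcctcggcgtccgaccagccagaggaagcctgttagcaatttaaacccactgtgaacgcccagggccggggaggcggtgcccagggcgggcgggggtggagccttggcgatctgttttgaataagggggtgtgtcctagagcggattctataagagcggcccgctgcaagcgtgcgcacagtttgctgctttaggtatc

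Both strands were searched for CANNTG and for TATAAA. They were also searched for GGCGCC, the core of a GC-rich element bound by BMP Smads, and for GTCT, the short Smad box, and the motifs may overlap. The motifs and the promoters to print were chosen with results of these data known. CANNTG was found 2 times before Bmp4, 1 time each before Id1 and Id2, and not before Id3, and 65.5% of 33469 promoters of this length hold it. The TATAAA of Id1 starts 59 bases before the annotated start, and 12.9% of promoters hold that motif. GGCGCC was in none of these 4 windows and in that of Grem1, against 8.69% of all promoters. GTCT stood 3 times before Bmp4, 1 time each before Id1 and Id2 and not before Id3, and 84.0% of promoters hold it. A match is only a run of letters, and the known BMP response element of mouse Id1 lies further upstream than this window. Bmpr2 held none of the 4 motifs in its window.

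Among the ligands, Bmp4 had a fitted mean of 6000 normalized counts in periplocin-treated cells and 5071 in control cells. That is 1.18-fold, with a 95% interval of 1.10 to 1.27. The authors' deposited table gave a log2 change of 0.24 ± 0.05 (SE) and an adjusted p of 0.00109, from DESeq2's Wald test and Benjamini-Hochberg adjustment. With bufalin the fitted means of Bmp4 were 5215 in treated cells and 5233 in control cells. Its bufalin fold was 0.997 with an interval of 0.905 to 1.10, and the adjusted p in the authors' deposited table was 0.992. So the periplocin interval lies above 1 and that of bufalin spans it. A rise was the usual direction of a call with periplocin, where 64 called genes were higher and 3 lower over all genes.

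Bmp2, the close relative of Bmp4 that drives bone and heart development, was near the limit of measurement. Its fitted means were 20.1 in bufalin-treated cells and 12.7 in control cells, and 17.1 in periplocin-treated cells and 12.3 in control cells. The folds of 1.58 (interval 0.577 to 4.33) with bufalin and 1.39 (interval 0.493 to 3.90) with periplocin span 1 widely. With its standard error, a periplocin change of Bmp2 had to reach 6.93-fold for the p of the last called gene, against 1.14-fold for Bmp4.

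Bmpr2, the type II receptor whose loss in humans causes heritable pulmonary arterial hypertension, was among the most precisely measured of the 9. Its fitted means were 3984 in bufalin-treated and 3716 in control cells, and 3575 in periplocin-treated and 3600 in control cells. The bufalin fold was 1.07 with an interval of 0.982 to 1.17, and the periplocin fold 0.993 with an interval of 0.922 to 1.07. A change of 1.15-fold with periplocin would have been called for Bmpr2, and none was. With bufalin 1.20-fold was needed.

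The antagonist follistatin, encoded by Fst, binds activins tightly and BMPs more weakly. Its fitted means were 4264 in bufalin-treated cells and 5065 in control cells, a fold of 0.842 with an interval of 0.726 to 0.976. The authors' deposited table gave -0.25 ± 0.11 (SE, log2) and an adjusted p of 0.491, so Fst did not pass. With periplocin the means were 4668 in treated cells and 4908 in control cells, at 0.951-fold with an interval of 0.850 to 1.06. The standard error of Fst exceeded that of 95.1% of genes within a factor of 2 of its mean for bufalin, and of 93.8% for periplocin. Fst thus varied more between libraries than most genes of its level, and its interval is wider than that of Bmp4.

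Grem1, which encodes the BMP antagonist gremlin, was at the floor of detection. Its fitted means were 0.165 in bufalin-treated and 1.84 in control cells, and 1.26 in periplocin-treated and 1.94 in control cells. All lie under a floor of 3 counts per library, so no fold is given. In the authors' deposited table the standard errors of its log2 changes were 3.95 and 3.02 with bufalin and periplocin.

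**Figure D1:**
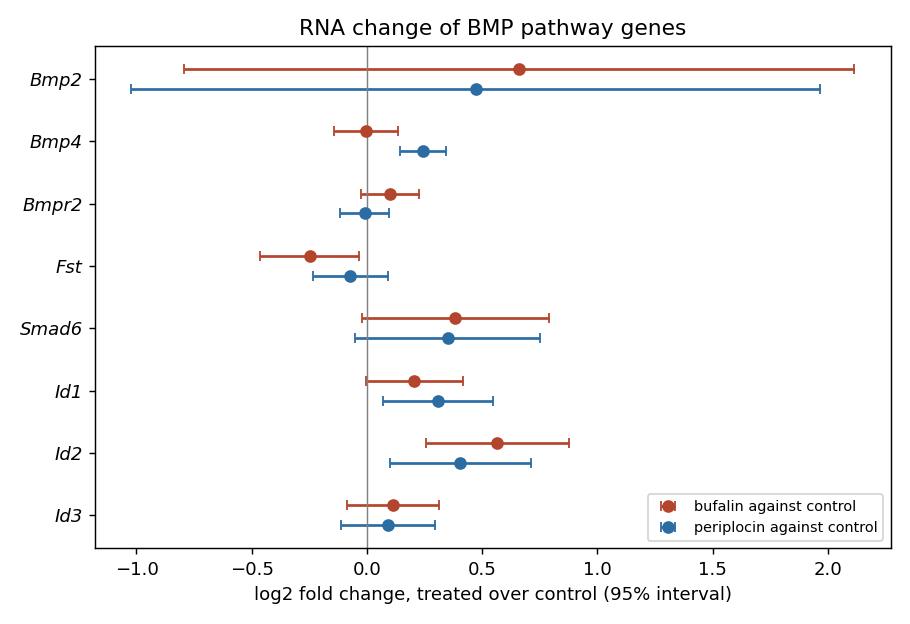
RNA change of 8 genes on the log2 scale, treated over control, with points for the estimate and bars for the 95% interval from the authors' standard errors (n = 3 libraries a group). The periplocin interval of Bmp4 lies above 0 and its bufalin point sits at -0.01, and both intervals of Id2 lie above 0. Grem1 is left out because its counts are under the floor.

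Smad6, an inhibitory Smad that is itself switched on by BMP signals, had fitted means of 305 in bufalin-treated and 234 in control cells. With periplocin they were 289 in treated and 226 in control cells. The folds were 1.30 (interval 0.984 to 1.73) with bufalin and 1.28 (interval 0.966 to 1.68) with periplocin. Both intervals reach just below 1, and the adjusted p with periplocin was 0.855 in the authors' deposited table. A periplocin change of 1.68-fold was needed for a call.

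Id2 had a fitted mean of 520 normalized counts in bufalin-treated cells and 352 in control cells. This is 1.48-fold with an interval of 1.19 to 1.83, and the authors' deposited table gave a log2 change of 0.56 ± 0.16 (SE) at an unadjusted p of 0.000364. The bufalin table holds no adjusted p for genes with a mean under 2259, and 6 of the 9 genes, Id2 among them, fell below this limit. Adjusted over all 12876 genes with a p-value in that table, the adjusted p of Id2 was 0.204. With periplocin Id2 had 451 in treated and 341 in control cells, 1.32-fold with an interval of 1.07 to 1.64. Its adjusted p there was 0.418 in the authors' deposited table, and 1.49-fold was needed for a call.

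Id1 stood at 1142 in bufalin-treated and 991 in control cells, a fold of 1.15 with an interval of 0.996 to 1.33. With periplocin it stood at 1190 in treated and 960 in control cells, at 1.24-fold with an interval of 1.05 to 1.46. For periplocin the authors' deposited table gave a log2 change of 0.31 ± 0.12 (SE) and an adjusted p of 0.450. Id1 and Id2 thus had intervals above 1 with periplocin, and with bufalin only Id2 did. Neither compound gave an adjusted p under 0.05 for either gene.

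Id3 had the smallest folds of the 3 Id genes. Fitted means of Id3 were 1297 in bufalin-treated and 1200 in control cells, and 1239 in periplocin-treated and 1163 in control cells. The folds were 1.08 (interval 0.941 to 1.24) with bufalin and 1.07 (interval 0.926 to 1.23) with periplocin. Both intervals span 1. Whether Id3 differs from Id1 or Id2 in its response was not tested.

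At the authors' adjusted p, 0 of the 3 genes with such a value passed with bufalin, where 0.301% of all genes with one did. With periplocin 1 of 9 passed, against 0.538% of all genes. At an unadjusted p under 0.05, Id2 and Fst passed with bufalin, 2 of 9 against 5.00% of all genes, and Bmp4, Id1 and Id2 passed with periplocin, 3 of 9 against 6.25%. Since the genes were chosen with these values known, the shares are not set against the background. The median log2 change over the 8 genes with a mean of at least 10 was 0.16 with bufalin and 0.28 with periplocin. Over all genes with such a mean it was 4.3e-05 and -0.0015. The medians of the 8 genes likewise follow in part from how they were chosen, so no shift of the pathway is read from them.

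**Figure D2:**
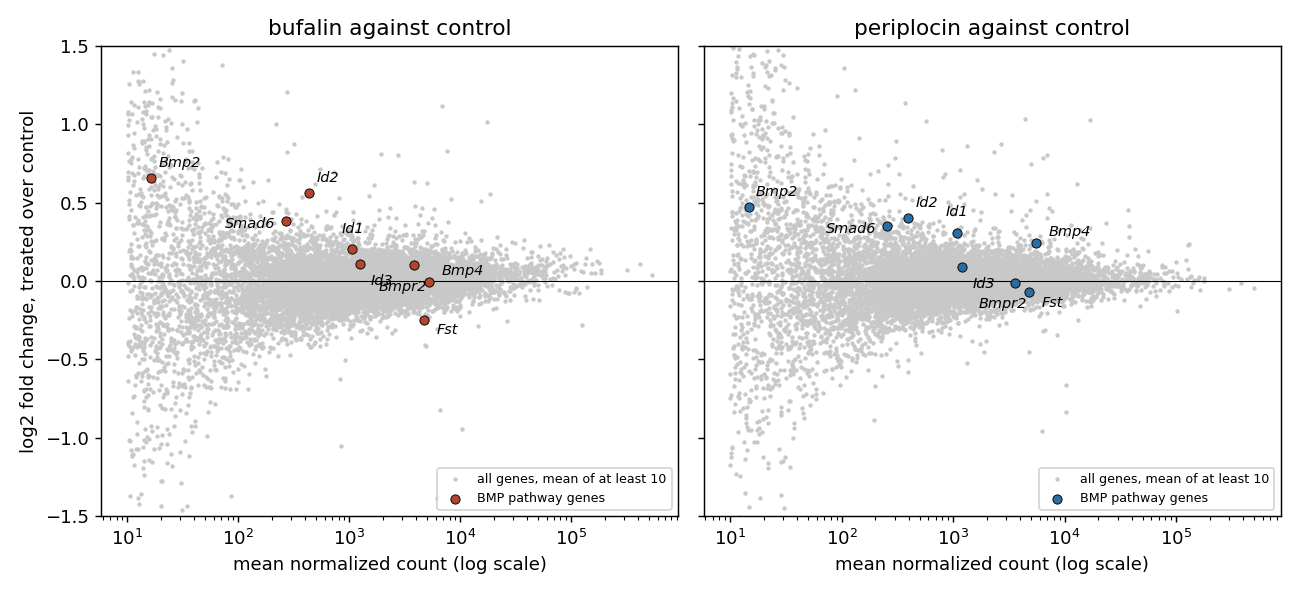
Log2 fold change against mean normalized count, on a log scale, for all genes with a mean of at least 10 (grey) and 8 of the described genes (coloured), bufalin left and periplocin right. Id2 and Smad6 sit near the upper edge of genes of their level in both panels, and Bmp4 and Id1 do so with periplocin. Fst sits near the lower edge with bufalin. Of genes within a factor of 2 of the mean of Id2, 0.273% had a larger rise than Id2 with bufalin and 0.961% with periplocin. Id2 was listed with its changes in view, so these shares describe its place and test nothing. The vertical axis ends at 1.5 on either side, beyond which 31 genes lie with bufalin and 51 with periplocin.

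The compounds were set against each other through the controls they share. Doses may differ between them, which the labels do not settle. Each difference was tested approximately, as a Wald statistic whose standard error was worked out from those in the authors' deposited table, with p-values adjusted over the 10608 genes whose mean was at least 10 in both tables. Bmp4 was the 1 gene of 8 that passed, where 0.396% of all genes did. Its bufalin minus periplocin difference was -0.25 ± 0.06 (SE, log2), the interval ran from -0.37 to -0.13, and the adjusted p was 0.0235. Since Bmp4 was chosen with both changes known, the difference is a description. Where the controls are treated as separate, which gives the largest standard error, the adjusted p of Bmp4 was 0.9999 and the call is lost, and 8 genes passed in all.

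The Id genes were not shown to differ between the compounds. The difference was 0.16 for Id2 (interval -0.15 to 0.46), -0.10 for Id1 (interval -0.33 to 0.12) and 0.02 for Id3 (interval -0.18 to 0.22), on the log2 scale. For Smad6 it was 0.03 with an interval of -0.37 to 0.43. For Fst it was -0.18 with an interval of -0.37 to 0.01, and for Bmpr2 0.11 with -0.01 to 0.23. The difference of Bmp2 was 0.19, and its interval of -1.26 to 1.64 allows large differences either way.

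**Figure D3:**
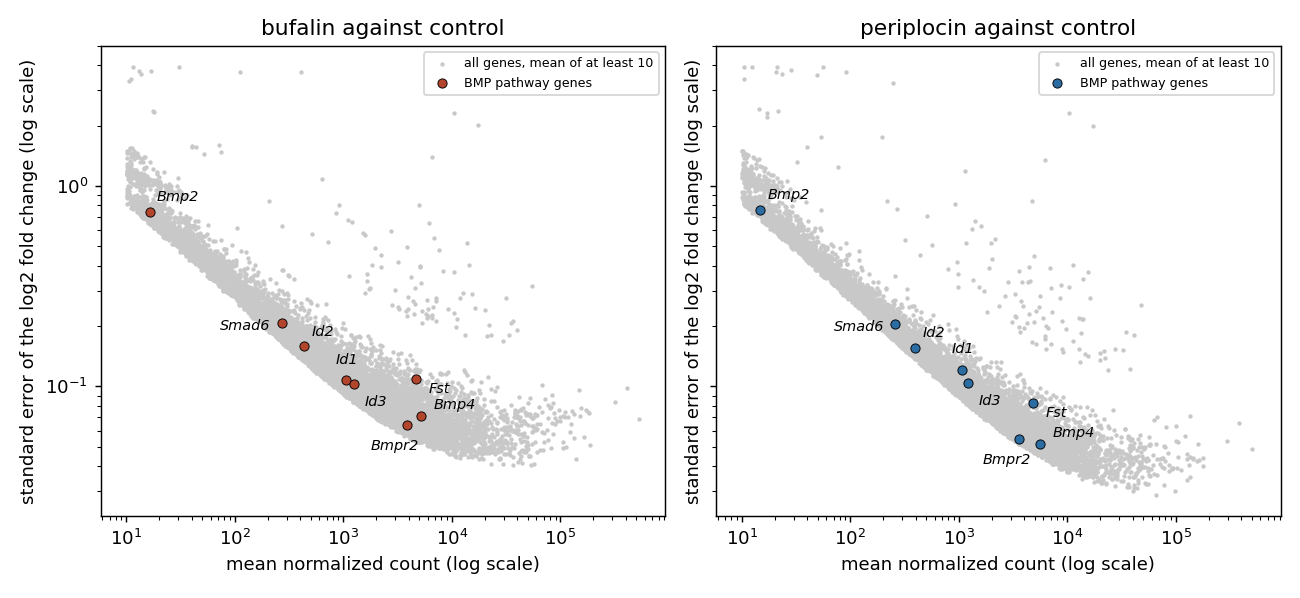
Standard error of the log2 fold change against mean normalized count, both on log scales, for all genes with a mean of at least 10 (grey) and 8 of the described genes (coloured), bufalin left and periplocin right. Fst lies above most genes of its level in both panels, with standard errors of 0.11 and 0.08, and Bmpr2 lies in the lower part, at 0.06 and 0.05.

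In the bufalin table the standard error of Id2 was 0.16 where genes within a factor of 2 of its mean had a median of 0.15. For Id1 it was 0.11 against a median of 0.11, and for Bmp4 0.07 against 0.07. With periplocin the standard error of Id1 was 0.12 against a median of 0.10, larger than in 81.5% of genes of its level, and that of Bmp4 was 0.05 against 0.06, larger than in 23.8%. Bmp4 was thus more precisely measured than most genes of its level with periplocin, and Id1 less so. Counting noise made up 13.2% of the variance of the Id2 change with bufalin and 5.29% of that of Bmp4, so most of it was spread between libraries beyond counting.

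m6A was measured as peaks, stretches of RNA enriched by the antibody. Of the 9 genes, Bmp4, Bmpr2, Id1 and Id3 carried peaks in both lists, 10 peaks of 9866 in the bufalin list and 9 of 9170 in the periplocin list. Bmp2, Grem1, Fst, Id2 and Smad6 carried none in either list. The share of genes with a peak was larger at higher RNA levels. Among genes within a factor of 2 of the control level of Fst, 72.0% had a peak in the bufalin list and 70.4% in the periplocin list, so Fst was among the minority without one. For Id2 these shares were 36.4% and 33.4%, for Smad6 28.0% and 25.3%, and for Bmp2 1.17% and 1.52%. Of the genes with peaks, Bmp4 had shares of 72.3% and 70.7% at its level, and Bmpr2 70.3% and 68.4%. For Id1 they were 54.3% and 50.9%, and for Id3 57.4% and 53.9%. A peak was thus common at these levels.

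Positions are given in rn6, the build named in the submitters' processing notes, and enrichments are the authors' values, read as IP over input. On Id1 the bufalin list had a peak at chr3:148216334-148216429 with 1.58-fold enrichment, and the periplocin list one at chr3:148216286-148216429 with 1.72-fold. Id3 had the same interval in both lists, chr5:154490726-154490875 on the plus strand, at 1.69-fold with bufalin and 1.90-fold with periplocin. The single peak of each of these genes thus lay at the same place in both comparisons. Exon, intron or UTR positions of the peaks were not worked out, because no rn6 annotation was used here.

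Bmp4, on the minus strand of chromosome 15, carried 3 peaks in each list. In the bufalin list they were chr15:20776315-20776414 at 1.69-fold, chr15:20776859-20777008 at 2.13-fold and chr15:20777156-20778258 at 1.66-fold. The last of these was joined from 2 blocks that hold 100 bases together. In the periplocin list the first peak ran on to 20776562 at 2.39-fold, and the other two had the same bounds at 2.0-fold and 1.70-fold. The 3 peaks share a gene and are not independent.

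Bmpr2, on the plus strand of chromosome 9, carried 5 peaks in the bufalin list and 4 in the periplocin list. One lay apart at chr9:66568173-66568272, with 1.57-fold and 1.77-fold enrichment in the bufalin and periplocin lists. The others clustered toward the downstream end of the peaks, up to the one with the most bases, chr9:66673598-66674243 with bufalin at 2.29-fold and chr9:66673548-66674292 with periplocin at 2.45-fold. Between them lay joined peaks at chr9:66657931-66669363 in the bufalin list and chr9:66664415-66669363 in the periplocin list, both at 2.38-fold. The joined peak chr9:66669512-66673201 had 1.84-fold and 1.58-fold enrichment in the bufalin and periplocin lists. The bufalin peak chr9:66673300-66673499, at 1.94-fold, overlapped no periplocin peak. Peaks on Bmpr2 covered 1196 bases in the bufalin list and 1045 in the periplocin list, counting the blocks of joined peaks and not the gaps between them.

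Of the 10 bufalin peaks on these genes 9 overlapped a periplocin peak (90%), and all 9 periplocin peaks overlapped a bufalin peak (100%), at 1 base or more on the same strand. Over the whole lists 83.0% of bufalin peaks overlapped a periplocin peak and 89.4% of periplocin peaks a bufalin peak, by the same rule and on the same gene. Both lists rest on the same control libraries, so the overlap is not independent evidence of a peak. In 5 of the 9 pairs start and end were equal. The enrichment of the genes' peaks had a median of 1.77 in the bufalin list and 1.90 in the periplocin list, and over all peaks the medians were 1.82 and 1.81. The lowest and highest were 1.57 and 2.38 with bufalin and 1.58 and 2.45 with periplocin. These peaks are thus of ordinary strength for the lists.

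No peak on the 9 genes passed an FDR of 0.05 for its change with either compound, which does not show that the peaks stayed the same. The FDR of the change was 1 for all 10 bufalin and all 9 periplocin peaks in the authors' deposited table, and 0.0304% of all bufalin peaks and 0.0436% of all periplocin peaks had one under 0.05. The direction of the peak change is not stated in the lists and is read here as treated over control. In the authors' deposited table the bufalin changes of Bmp4 peaks were -0.38, -0.20 and -0.18 on the log2 scale, and those of Bmpr2 peaks ran from -0.33 to -0.11. In the authors' deposited table the Id1 peak had changes of 0.03 (bufalin) and 0.20 (periplocin), and the Id3 peak 0.06 in both lists. The first Bmp4 peak with bufalin had an unadjusted p of 0.0107 for its change, the smallest of the 19, and 3.04% of all bufalin peaks had one under 0.05.

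**Figure D4:**
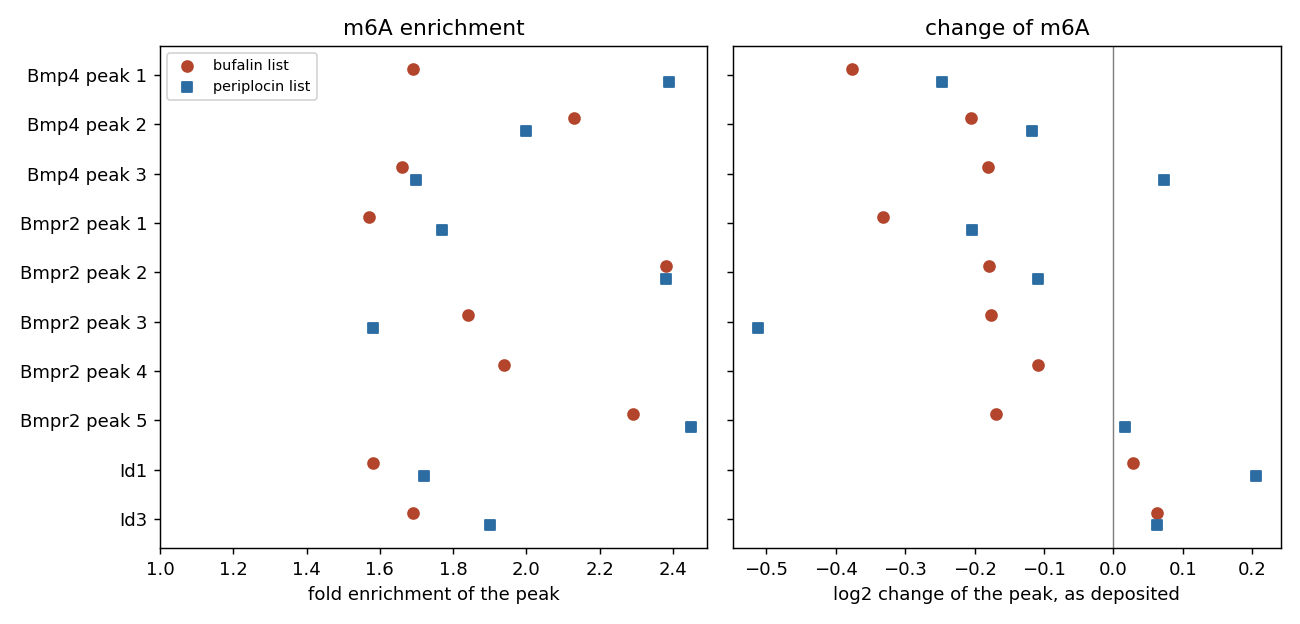
Fold enrichment (left, axis from 1) and log2 change (right) of each m6A peak on Bmp4, Bmpr2, Id1 and Id3, with circles for the bufalin list and squares for the periplocin list. Overlapping peaks share a line, and peak 4 of Bmpr2 was in the bufalin list only. Changes ran from -0.51 to 0.20, and none had an FDR under 0.05.

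With periplocin the RNA of Bmp4 rose while the changes of its peaks were -0.25, -0.12 and 0.07 in the authors' deposited table. The lists give no standard error for these changes. Whether input or IP libraries stand behind the RNA values is not stated, so RNA and peak changes are not weighed against each other.

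A list of 96 genes in and around the pathway, ordered by role and put together with earlier results of these data known, sets the 9 genes among their partners. It is broader than BMP genes alone and includes activin genes such as Inha and Inhba and Id partners such as Myod1, Ets1 and Elk1. Of the 96, 69 had a p-value with bufalin and 73 with periplocin. At the authors' adjusted p, 1 of the 17 that had one, none of the 9 described, passed with bufalin, and 1 of 69, Bmp4, with periplocin, where 0.301% and 0.538% of all genes with an adjusted p did. With bufalin 42 were above 0 and 27 below, with a median log2 change of 0.04, and over all genes the median was 0.00. With periplocin 37 were above and 36 below, with a median of 0.00. Without the 9 described genes, and at a mean of at least 10, the medians were 0.04 with bufalin and -0.02 with periplocin. At an unadjusted p under 0.05, 5 were higher and 2 lower with bufalin, and 6 higher and 1 lower with periplocin. These are 7 of 69 and 7 of 73 genes, beside 5.00% and 6.25% of all genes with a p-value, and the list was put together with results known, so nothing is read from the shares. Nor is anything read from the counts by role given further on, which include the described genes.

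Among the other ligands of the list is Inhba, which encodes the subunit of activin A, a ligand that is not a BMP. Its fitted means were 3534 in bufalin-treated and 3850 in control cells. With periplocin they were 4257 in treated and 3730 in control cells. The authors' deposited table gave log2 changes of -0.12 ± 0.07 (SE) with bufalin and 0.19 ± 0.06 with periplocin, at adjusted p of 0.604 and 0.115. Between the compounds Inhba passed, at -0.31 ± 0.06 (SE, log2, bufalin minus periplocin; adjusted p 0.000817). With the controls treated as separate its adjusted p was 0.379, and the call is lost.

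The type I receptors pair with Bmpr2, and none of the 4 measured here passed. Bmpr1a had log2 changes in the authors' deposited table of -0.05 ± 0.11 (SE) for bufalin and -0.06 ± 0.09 for periplocin. For Acvr1 the authors' deposited table had 0.08 ± 0.12 (SE, log2) for bufalin and 0.08 ± 0.10 for periplocin. Bmpr1b was sparse, at 60.9 in bufalin-treated and 73.9 in control cells, and 80.6 in periplocin-treated and 71.5 in control cells. Acvrl1, the endothelial receptor, had fitted means of 3.44 in bufalin-treated and 5.01 in control cells, and of 0.178 in periplocin-treated and 4.66 in control cells. These lie near the floor, and the authors' deposited table gave log2 changes of -0.54 ± 2.11 (SE) for bufalin and -4.71 ± 2.56 for periplocin. Of 9 receptors and co-receptors with a mean of at least 10, 6 were above 0 with bufalin and 4 with periplocin, with medians of 0.08 and -0.01.

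Of the secreted antagonists and modulators, 11 had a mean of at least 10, and 7 were below 0 with bufalin and 8 with periplocin, with medians of -0.10 and -0.07. For Crim1, a membrane protein that tethers BMPs, the authors' deposited table gave -0.17 ± 0.08 (SE, log2) for bufalin and -0.01 ± 0.05 for periplocin. For Fstl1, a follistatin-like glycoprotein, the authors' deposited table had 0.01 ± 0.05 for bufalin and -0.09 ± 0.04 for periplocin. Neither Crim1 nor Fstl1 passed an adjusted p of 0.05 in either comparison.

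Smad7, the partner of Smad6 that inhibits both TGF-beta and BMP receptors, had nearly equal values with both compounds. Both values rest on the same controls, so their likeness is not independent. The fitted means of Smad7 were 2135 in bufalin-treated and 1562 in control cells, and 2055 in periplocin-treated and 1514 in control cells. The authors' deposited table gave log2 changes of 0.45 ± 0.15 (SE) for bufalin and 0.44 ± 0.13 for periplocin. The adjusted p with periplocin was 0.0736, and over all genes with a p-value it was 0.480 with bufalin, so Smad7 did not pass. Tob1, an antiproliferative protein that represses BMP Smads, had log2 changes in the authors' deposited table of 0.19 ± 0.12 (SE) for bufalin and 0.31 ± 0.09 for periplocin. Tob1 did not pass either, at an adjusted p of 0.0631 with periplocin in the authors' deposited table. Zeb2, a repressor that binds Smads, had log2 changes in the authors' deposited table of 0.18 ± 0.09 (SE) for bufalin and 0.08 ± 0.08 for periplocin. For bufalin its Wald p, adjusted over all genes with a p-value, was 0.983, and Zeb2 passed in neither comparison. Of 13 Smads and regulators, 11 were above 0 with bufalin and 8 with periplocin, with medians of 0.12 and 0.02.

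Id4, the remaining Id gene, was sparse, with 79.8 in bufalin-treated and 47.2 in control cells, and 51.2 in periplocin-treated and 45.7 in control cells. The authors' deposited table put its log2 change at 0.76 ± 0.34 (SE) for bufalin and 0.16 ± 0.38 for periplocin. Its difference between the compounds had an interval of -0.10 to 1.29. For bufalin its Wald p, adjusted over all genes with a p-value, was 0.959, and Id4 passed in neither comparison. Of the E proteins that Id proteins bind, Tcf12 had log2 changes in the authors' deposited table of 0.02 ± 0.09 (SE) for bufalin and -0.03 ± 0.07 for periplocin. Tcf4 had log2 changes in the authors' deposited table of 0.16 ± 0.15 (SE) for bufalin and 0.10 ± 0.12 for periplocin. For Tcf3 the authors' deposited table had 0.01 ± 0.40 (SE, log2) for bufalin and -0.22 ± 0.43 for periplocin, with standard errors too large to show a moderate change. Over the 15 transcriptional targets with a mean of at least 10, 10 were above 0 with bufalin and 8 with periplocin, with medians of 0.11 and 0.09.

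**Figure D5:**
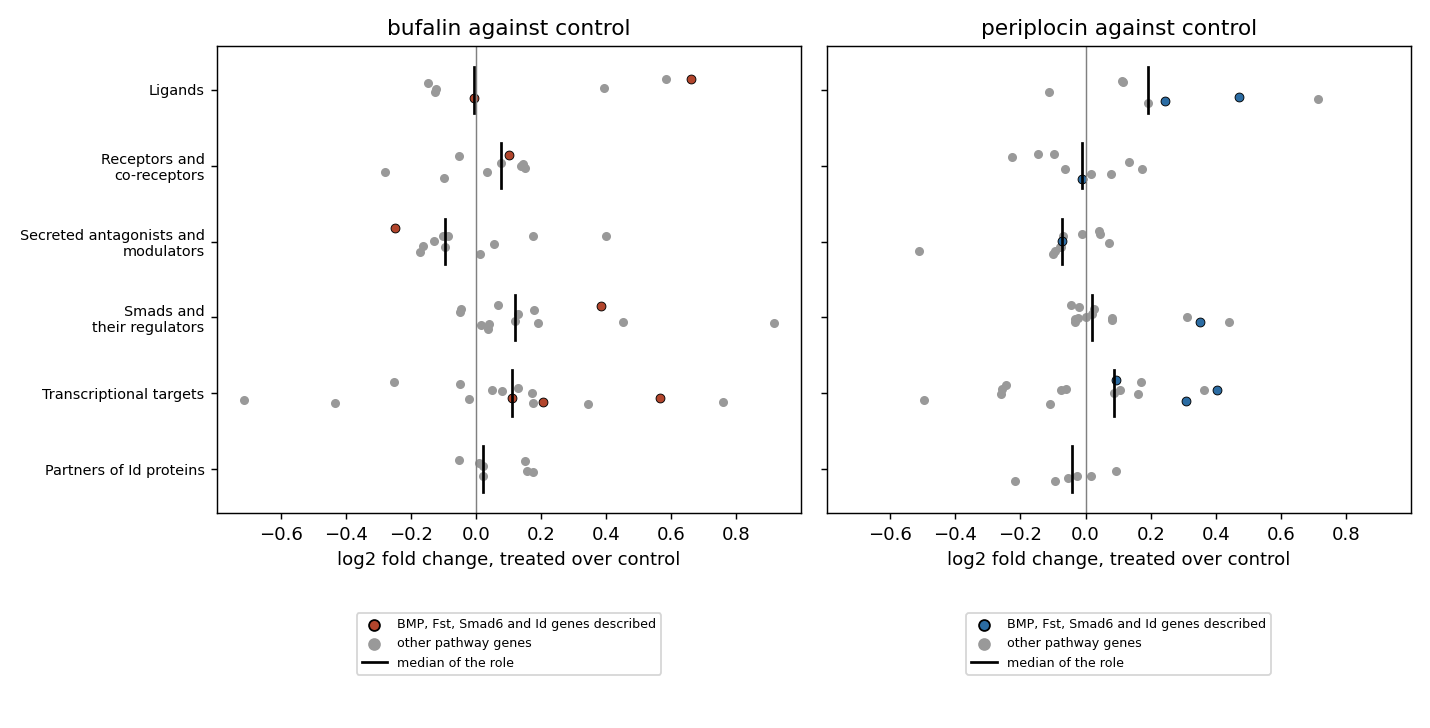
Log2 fold change of pathway genes with a mean of at least 10, by role, with bufalin left and periplocin right. Coloured points are among the 9 described genes, grey points are other genes of the list, and black bars are the medians of each role, which ran from -0.10 to 0.12 with bufalin and from -0.07 to 0.19 with periplocin.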

How the data were processed

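The study measured RNA and m6A peaks in 18 H9c2 samples, which the labels place in 6 groups of 3. Libraries were stranded and held molecular identifiers, per the labels' protocols. HISAT2, StringTie, DESeq and the rn6 build appear in the submitters' processing notes, while the sources used here give neither versions nor the peak caller, nor say whether input or IP libraries stand behind the expression tables. The deposited signal per gene is a mean of counts divided by size factors. Log2 fold changes, standard errors, test scores, p-values and adjusted p-values were computed by the authors, with DESeq2 as the file headers show. The enrichment of a deposited peak was read as a ratio of IP over input, and its p and FDR stand as log10 in the deposited lists. No value of a single library was used, and depth per library is unknown.

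Folds were read as treated over control: fitted control means then matched between both tables within 1% for 10608 of 10608 genes, once a shift of 0.05 (log2) was removed, against 9.9% to 11.0% of genes under the other readings. The Wald score of the periplocin table has the sign opposite to its fold in all 12913 genes. Fitted control means are 2 times the deposited mean divided by 1 plus the fold, and treated means are these times the fold. The SE of a difference between compounds takes the spread as equal in treated and control groups. The calculation was run on simulated data that had this equal spread built in, so the assumption itself was not tested.

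The 9 genes, the pathway list and the rules were chosen with earlier results of these data known, and the windows of genes within a factor of 2 in level and the motifs were chosen after the files were seen. The genes named are the 9, pathway genes at an unadjusted p under 0.05 or with a changed peak, the E proteins and the type I receptors, except 1 that the rule takes and that is not reported here, though counts over the list include it. Alternatives covered the adjustment, thresholds, filters on the mean, the standard error, centring and peak overlap. Scripts ran under Python 3.11.15 with numpy 2.4.6, pandas 2.3.3 and scipy 1.17.1, and figures used matplotlib 3.10.9.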

Additional observations from a re-analysis of the deposited data

Results flagged for a closer look

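Bmp4 and Inhba differed between the compounds in a Wald test of the difference itself, adjusted over 10608 genes. Bmp4 had log2 changes of -0.01 with bufalin and 0.24 with periplocin, a difference of -0.25 (adjusted p 0.0235). Inhba, an activin gene and not a BMP gene, had -0.12 with bufalin and 0.19 with periplocin, a difference of -0.31 (adjusted p 0.000817). Both calls are lost with the controls treated as separate. The genes were chosen or listed with earlier results of these data known, so the differences are a description.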

How the results depend on the processing

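Of the 9 genes 0 passed with bufalin and 1 with periplocin, and these counts held when p-values were adjusted over all genes or over those with a mean of at least 10, and at an adjusted p of 0.1. At an unadjusted p under 0.05, a setting chosen after seeing the data, 2 genes passed with bufalin and 3 with periplocin, and 1 bufalin peak and 0 periplocin peaks on them did. Between the compounds 1 of 8 genes passed, also when only means of at least 100 were kept, and 0 passed when the controls were treated as separate, a setting that enlarges the standard error. Over the 21 named genes with a mean of at least 10 this setting kept 19 of 21 calls or absences of one and ended those of Bmp4 and Inhba. Centring on the median fold moved 18 of 18 values by less than 1 SE. Shared peaks numbered 9 at 1 base and over exon blocks, and 7 at an overlap of 50% of both peaks. The count of pathway genes called, 1 with each compound, held at a mean of at least 10 and of 100. No paired analysis was possible because the tables hold no values of single libraries, and no replicate could be left out for that reason. Low counts limit Bmp2 and Grem1.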
